A study of Mus musculus with 10 samples.

Results

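The 10 genes described here belong to the Fanconi anaemia pathway of DNA crosslink repair, and their RNA was followed in quiescent mouse fibroblasts with and without Lin37. They were taken from a list of symbols and looked up by identifier, and all 10 were found among the 45232 entries of the deposited expression table. The list holds 6 genes of the core complex (*Fanca*, *Fancb*, *Fancc*, *Fancg*, *Fancl* and *Fancm*), the ubiquitin-conjugating enzyme *Ube2t*, both subunits of the ID2 clamp (*Fancd2* and *Fanci*) and the helicase gene *Brip1*.

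An interstrand crosslink ties both strands of DNA together and stops a replication fork. In the Fanconi anaemia pathway, FANCM anchors the core complex to the stalled fork, and the core complex acts as a ubiquitin ligase through its RING subunit FANCL and its partner enzyme UBE2T. It attaches a single ubiquitin to FANCD2 and FANCI, which then close around DNA as a clamp and allow nucleases to cut the crosslink out. Translesion polymerases and homologous recombination finish the repair, and the helicase BRIP1, a partner of BRCA1, takes part in this late stage. The work of the pathway is tied to DNA replication, and serum-starved fibroblasts replicate little DNA. Lin37 is a subunit of MuvB, the protein core that joins with p130 and E2F4 into the DREAM complex, a repressor of cell cycle genes in quiescence.

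All samples were NIH3T3 cells, an immortalised line of mouse embryo fibroblasts, held without serum for 60 h before RNA was extracted and depleted of ribosomal RNA. Each group came from a single clone in which a Cas9 nickase had disrupted *Lin37*. The target was exon 4 in clone 411-27 and exon 6 in clone 632-2. Every culture carried an inducible episome. In the KO groups the episome encoded luciferase, and in the rescue groups wild-type Lin37, so the rescue cells share the mutated locus of their clone and are not unedited cells. There were 2 biological replicates in each of the 4 groups, and in the exon 6 clone the second KO and the second rescue replicate each had a technical replicate, which makes 10 libraries. The comparison of KO with rescue asks which genes need Lin37 for their low level in quiescence. Since each clone is a single isolate, an effect of the exon and an effect of the clone cannot be told apart.

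The deposited values are RPKM (reads per kilobase of gene, scaled to the read total of the library), and each library was rescaled by its median ratio to the others before anything was compared. The rescaling factors ran from 0.324 to 2.70 and were lowest in exon 4 rescue replicate 2 (0.377) and in the second library of the exon 6 rescue (0.324). The mean level of 1168 olfactory receptor genes, which fibroblasts are not known to use, ran from 0.00142 to 0.103 rescaled RPKM and was highest in exon 4 rescue replicate 2. The 8 fibroblast markers summed to 538 to 848 rescaled RPKM in the KO and 581 to 954 in the rescue, while 8 markers of blood, epithelial, endothelial and muscle cells summed to no more than 1.79, with 3 of them at 0 in some library. The proliferation markers *Mki67* and *Top2a* together reached 6.09 to 7.84 in the KO and 0.611 to 1.95 in the rescue, and their part in the results was not tested. In bulk RNA, more cells with a transcript and more transcript per cell cannot be told apart. *Lin37* itself stood at 0.285 and 0.284 in KO cells of the exon 4 clone, at 0.417, 0.279 and 0.268 in KO cells of the exon 6 clone, at 2.54 and 2.12 in rescue cells of the exon 4 clone, and at 4.92, 5.11 and 4.41 in those of the exon 6 clone. All rescue libraries lay above all KO libraries, and the log2 change was -2.25 (SE 0.17, adjusted p = 0.000293). A read of the episome and one of the mutated locus cannot be told apart in these values.

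Of the 10 Fanconi anaemia genes, 4 rose without Lin37: *Fanca*, *Fanci*, *Fancd2* and *Ube2t*. Their KO means were 4.47 times (*Fanca*) to 8.02 times (*Fanci*) their rescue means, and no gene of the list fell. The number called ran from 1 (without exon 6 KO replicate 1 or 2) to 4 as single replicates were left out, and was 2 without exon 4 rescue replicate 1 or either exon 6 rescue replicate and 3 without either exon 4 KO replicate. In each of these fits fewer genes were also called among all genes tested, as given further below, so a lower count is not particular to the list. With no minimum level the number called was 0 of 10, beside 0.343% of 45232 entries upwards. A gene is called here at a Benjamini-Hochberg adjusted p under 0.05 in limma over both clones (4 KO against 4 rescue replicates), a threshold that 1.61% of the 16866 genes tested passed upwards and 0.083% downwards. In 6 genes (the called 4 with *Fancb* and *Brip1*) every KO replicate lay above every rescue replicate, as it did in 3.11% of the genes tested; the reverse held for 0 of the 10 and 1.4% of all. In 7 genes (these 6 with *Fancg*) the KO replicate was the higher in all 4 same-numbered pairs, against 8.96% of genes. *Fancl* and *Fancm* were higher in 3 pairs and *Fancc* in 2. The log2 changes of the 10 genes had a median of 0.54, beside -0.03 over all genes tested. These changes are differences on the scale log2(RPKM + 0.5), which understates the fold of genes as low as these, so the ratio of the means is given as well.

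**Figure D1:**
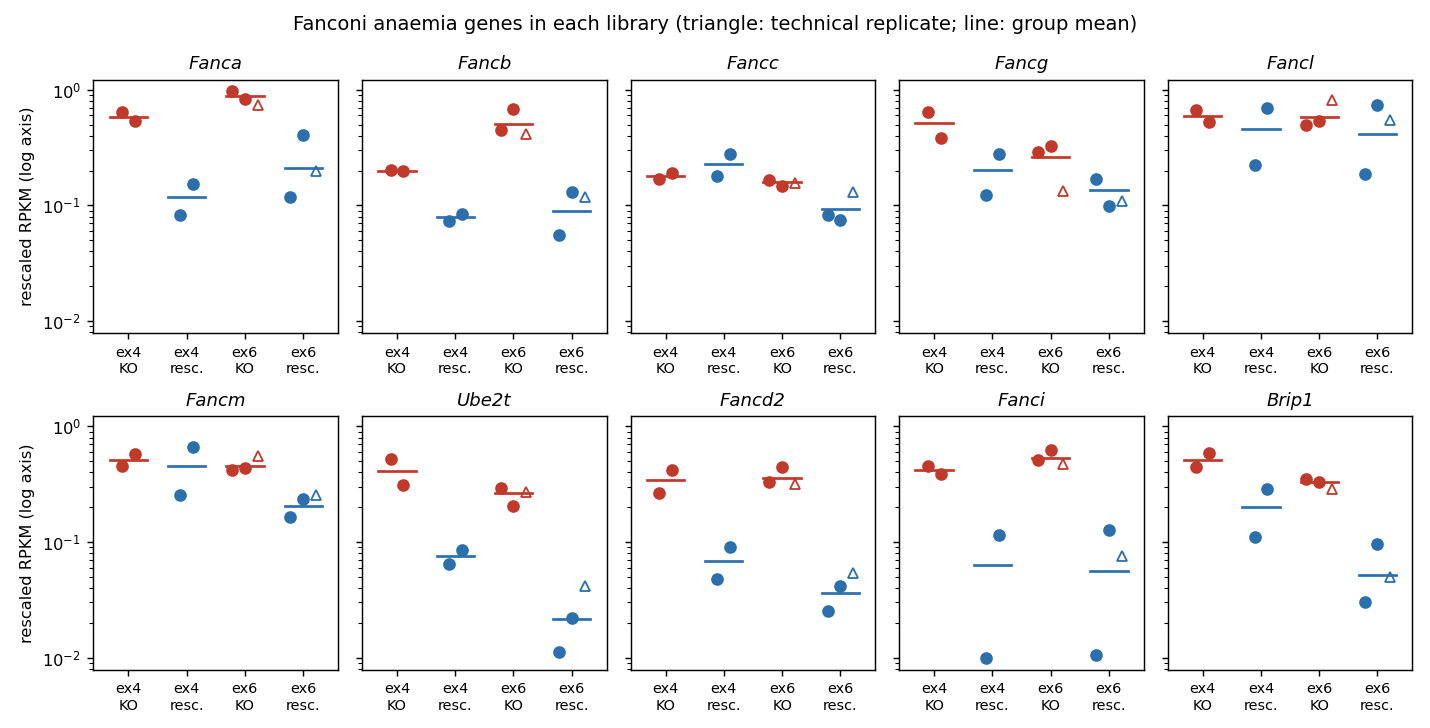
Rescaled RPKM (vertical log axis) of each Fanconi anaemia gene in the 10 libraries, with KO in red, rescue in blue, the technical replicates of the exon 6 clone as open triangles and the group means over biological replicates as lines. In *Fanca*, *Fancb*, *Ube2t*, *Fancd2*, *Fanci* and *Brip1* all red circles stand above all blue circles. The same holds for *Fancg*, but its red triangle lies among the blue circles. In *Fancc*, *Fancl* and *Fancm* the circles overlap.

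All 10 genes were weakly expressed in these cells. Each had a mean below 1 RPKM over the 8 replicates, and the means lay between the percentiles 13.5 and 38.7 of the tested genes, whose median was 0.821 RPKM. Summed over the list, the level was 4.11 to 4.46 RPKM in the KO replicates (mean 4.30 ± 0.147, SD, n = 4) and 0.855 to 2.73 in the rescue replicates (1.63 ± 0.823, SD, n = 4). The KO replicates were thus close together and the rescue replicates spread widely, with exon 4 rescue replicate 2 at 2.73 and exon 6 rescue replicate 1 at 0.855. In the rescue, RPKM per gene decreased in the order *Fancl*, *Fancm*, *Fancg*, *Fanca*, *Fancc*, *Brip1*, *Fancb*, *Fanci*, *Fancd2*, *Ube2t*, and the ranges of all neighbours in this order overlapped. In the KO the order was *Fanca*, *Fancl*, *Fancm*, *Fanci*, *Brip1*, *Fancg*, *Fancb*, *Fancd2*, *Ube2t*, *Fancc*, and only *Ube2t* and *Fancc* were neighbours without overlap.

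Sequence around the annotated starts of these genes is shown because DREAM is known to reach its targets through E2F sites and through the cell cycle genes homology region, CHR. RefSeq windows (build GRCm38.p6) from 250 bases before to 50 bases after the annotated start were given for 9 of the 10 genes, all but *Fancd2*. The start used is that of the RefSeq entry; in *Fancc*, *Fancl* and *Fanci* it lies 65533, 949 and 409 bases past the outermost start of the gene in GENCODE, so these 3 windows lie inside the gene and do not cover the sequence in front of that outer start. They were searched on both strands for 4 spellings of an E2F site (TTCCCGC, its variant TTGGCGC, then TTCGCGC and finally TTGCCGC) and for the CHR spelled as TTTGAA or as TTCGAA. An E2F spelling occurred in 6 of the 9 windows, beside 9.57% of the 32851 windows of all genes, and a CHR spelling in 0 of 9, beside 19.2%. The windows of the called genes *Ube2t*, *Fanci* and *Fanca* follow, with that of *Fancm*, a gene that was not called, for contrast; they are written 5′ to 3′ on the strand of the gene, and capitals mark the E2F spellings on either strand.
Ube2t, chr1:134962315-134962614, plus strand: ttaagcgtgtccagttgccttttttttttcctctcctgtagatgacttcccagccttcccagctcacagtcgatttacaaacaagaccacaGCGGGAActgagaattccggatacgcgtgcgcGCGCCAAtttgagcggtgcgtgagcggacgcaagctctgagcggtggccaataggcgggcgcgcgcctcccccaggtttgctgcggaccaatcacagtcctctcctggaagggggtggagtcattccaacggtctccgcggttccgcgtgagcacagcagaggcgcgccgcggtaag
Fanci, chr7:79392088-79392387, plus strand: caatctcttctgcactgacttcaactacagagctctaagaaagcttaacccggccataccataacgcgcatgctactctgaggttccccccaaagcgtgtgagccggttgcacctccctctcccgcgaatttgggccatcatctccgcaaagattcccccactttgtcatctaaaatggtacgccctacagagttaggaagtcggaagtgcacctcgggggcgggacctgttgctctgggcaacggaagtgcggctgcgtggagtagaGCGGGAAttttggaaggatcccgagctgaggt
Fanca, chr8:123318527-123318826, minus strand: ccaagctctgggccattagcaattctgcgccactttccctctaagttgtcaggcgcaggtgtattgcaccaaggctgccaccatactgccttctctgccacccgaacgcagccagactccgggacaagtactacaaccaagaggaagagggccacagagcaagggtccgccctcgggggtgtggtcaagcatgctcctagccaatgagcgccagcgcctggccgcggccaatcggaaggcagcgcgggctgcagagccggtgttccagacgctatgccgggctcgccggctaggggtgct
Fancm, chr12:65075353-65075652, plus strand: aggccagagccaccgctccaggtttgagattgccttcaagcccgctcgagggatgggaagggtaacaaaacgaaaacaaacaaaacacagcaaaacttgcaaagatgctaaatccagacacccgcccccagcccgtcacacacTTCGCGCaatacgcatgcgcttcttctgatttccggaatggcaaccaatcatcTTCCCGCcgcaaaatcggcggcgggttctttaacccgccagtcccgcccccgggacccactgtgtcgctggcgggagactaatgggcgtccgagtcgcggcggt

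*Ube2t* held a match at -159 and another at -127 bases from the annotated start, *Fanci* a match at position 19 (the start base being 1), and *Fancm* matches at -107 and -54. The remaining matches were at -172 in *Fancb*, -51 in *Fancg* and -4 in *Brip1*. *Fanca*, the gene with the greatest log2 change of the list, had no match, and neither had the windows of *Fancc* and *Fancl*, which lie inside these genes. A match was therefore present in called and uncalled genes alike, and it is a description of letters, not evidence of a bound site.

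Of the 6 core complex genes only *Fanca* was called, and differences between these genes were not tested. *Fanca* (GRCm38, chromosome 8, 123268300 to 123318576, minus strand), whose product forms a subcomplex with FANCG and FAAP20, stood at 0.640 and 0.533 RPKM in the exon 4 KO and at 0.0822 and 0.152 in the exon 4 rescue. In the exon 6 clone it was at 0.971, 0.837 and 0.733 in the KO libraries (the last being the technical replicate) and at 0.118, 0.406 and 0.199 in the rescue libraries. Every KO library was above every rescue library. The KO mean was 0.732 ± 0.189 RPKM against 0.164 ± 0.0966 in the rescue (SD, n = 4 each), a ratio of 4.47 and a log2 change of 0.89 (SE 0.12, adjusted p = 0.0055). With each of the 8 replicates left out in turn, its adjusted p stayed between 0.0109 and 0.0376, and with no minimum level it was 0.0578. Exons of *Zfp276* on the other strand cover 10.5% of the exonic bases of *Fanca*, and the counting is not stated to use strand. *Zfp276* had a log2 change of 0.20 (adjusted p = 0.667).

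*Fancb* (chromosome X, 164980592 to 164997272, plus strand) pairs with FANCL and FAAP100 in the catalytic module. Its levels were 0.201 and 0.197 RPKM in the exon 4 KO, 0.0731 and 0.0846 in the exon 4 rescue, 0.452, 0.679 and 0.418 in the exon 6 KO, and 0.0552, 0.130 and 0.118 in the exon 6 rescue. The groups did not overlap, and the KO mean (0.350 ± 0.179) was 4.15 times the rescue mean (0.0842 ± 0.0292, SD, n = 4 each). Its log2 change of 0.52 (SE 0.13) nevertheless missed the threshold over all genes (adjusted p = 0.138). *Fancg* (chromosome 4, 43002343 to 43010506, minus strand), whose product binds FANCA, had 0.648 and 0.383 RPKM in the exon 4 KO, 0.124 and 0.281 in the exon 4 rescue, 0.290, 0.326 and 0.133 in the exon 6 KO, and 0.170, 0.0982 and 0.108 in the exon 6 rescue. Here the technical replicate of the KO fell among the rescue values. The log2 change of *Fancg* was 0.39 (SE 0.14, adjusted p = 0.368). Its 95% interval, from 0.08 to 0.70, is not adjusted for the number of genes tested, and neither is any other interval given here.

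*Fancl* (chromosome 11, 26386135 to 26471876, plus strand), the RING ligase subunit, was at 0.667 and 0.530 RPKM in the exon 4 KO, 0.223 and 0.691 in the exon 4 rescue, 0.492, 0.536 and 0.812 in the exon 6 KO, and 0.187, 0.741 and 0.546 in the exon 6 rescue. The 2 highest rescue libraries were those with the lowest rescaling factors, and the groups overlapped. Its change was 0.26 (SE 0.20, 95% interval -0.20 to 0.72, adjusted p = 0.777). *Fancm* (chromosome 12, 65075603 to 65132058, plus strand), the DNA translocase, was at 0.451 and 0.573 in the exon 4 KO, 0.254 and 0.662 in the exon 4 rescue, 0.419, 0.434 and 0.558 in the exon 6 KO, and 0.165, 0.234 and 0.254 in the exon 6 rescue. Its KO values exceeded those of the rescue in all libraries but exon 4 rescue replicate 2, and its change was 0.28 (SE 0.15, 95% interval -0.07 to 0.63, adjusted p = 0.680). Opposite-strand genes cover 13.7% of the exonic bases of *Fancl* (*Vrk2*, with a log2 change of 0.20 and an adjusted p of 0.726) and 7.07% of those of *Fancm*.

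*Fancc* (chromosome 13, 63285043 to 63497278, minus strand), a subunit that works with FANCE and FANCF, showed the smallest change. It had 0.170 and 0.190 RPKM in the exon 4 KO, 0.181 and 0.276 in the exon 4 rescue, 0.164, 0.148 and 0.156 in the exon 6 KO, and 0.0830, 0.0751 and 0.129 in the exon 6 rescue. The KO was above the rescue in the exon 6 clone and not in the exon 4 clone. Over both clones the KO mean (0.169 ± 0.0160) and the rescue mean (0.160 ± 0.0876, SD, n = 4 each) differed by less than the spread of the rescue, with a log2 change of 0.03 (SE 0.11, 95% interval -0.22 to 0.28, adjusted p = 0.962). Genes on the other strand cover 18.6% of the exonic bases of *Fancc*, the highest share on the list, and one of them, *2010111I01Rik*, had a log2 change of 0.01 (adjusted p = 0.986).

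The enzyme that carries ubiquitin to the core complex rose. *Ube2t* (chromosome 1, 134962565 to 134974162, plus strand) stood at 0.519 and 0.312 RPKM in the exon 4 KO and at 0.0649 and 0.0852 in the exon 4 rescue. In the exon 6 clone it was at 0.292, 0.206 and 0.270 in the KO libraries and at 0.0113, 0.0220 and 0.0416 in the rescue libraries. No values overlapped between KO and rescue, and the KO mean (0.340 ± 0.123) was 7.05 times the rescue mean (0.0483 ± 0.0331, SD, n = 4 each). The log2 change was 0.61 (SE 0.11, adjusted p = 0.0344). In a fit blocked on clone and replicate number, in which 1.64% of genes were called upwards and 0.16% downwards, the adjusted p was 0.0502 and the call was lost. It was also lost without any of the 8 replicates but exon 4 KO replicate 2 (adjusted p up to 0.173), and after quantile normalisation (limma, adjusted p = 0.0542).

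Both subunits of the clamp that receives this ubiquitin rose. *Fancd2* (chromosome 6, 113531682 to 113597017, plus strand) was at 0.263 and 0.418 RPKM in the exon 4 KO, 0.0478 and 0.0899 in the exon 4 rescue, 0.329, 0.448 and 0.319 in the exon 6 KO, and 0.0251, 0.0416 and 0.0536 in the exon 6 rescue. The lowest KO library was above the highest rescue library. The KO mean was 0.349 ± 0.0677 against 0.0526 ± 0.0271 in the rescue (SD, n = 4 each), 6.63 times as high, and the log2 change was 0.62 (SE 0.11, adjusted p = 0.0254). *Fancd2* kept its call in the fits without exon 4 KO replicate 1 and without exon 4 rescue replicate 2, and lost it without any of the other 6 replicates (adjusted p up to 0.160), where its log2 change stayed between 0.57 and 0.62.

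*Fanci* (chromosome 7, 79391929 to 79450264, plus strand) had the highest ratio on the list. It stood at 0.455 and 0.387 RPKM in the exon 4 KO and at 0.00988 and 0.116 in the exon 4 rescue. In the exon 6 clone it was at 0.511, 0.625 and 0.471 in the KO libraries and at 0.0105, 0.126 and 0.0762 in the rescue libraries. Again no values overlapped, but the rescue replicates of a clone differed more from each other than the KO replicates did. The KO mean of 0.475 ± 0.0699 was 8.02 times the rescue mean of 0.0593 ± 0.0570 (SD, n = 4 each), and the log2 change was 0.81 (SE 0.11, adjusted p = 0.00785). With single replicates left out, its adjusted p passed 0.05 only without exon 6 KO replicate 1 (0.0545) or replicate 2 (0.0578). With no minimum level the adjusted p of *Fanci* was 0.0598 in limma, and the call was lost. Exons of *Polg* on the other strand cover 16.0% of the exonic bases of *Fanci*, and *Polg* had a log2 change of 0.07 (adjusted p = 0.858).

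*Brip1* (chromosome 11, 86058138 to 86201193, minus strand) was at 0.445 and 0.588 RPKM in the exon 4 KO, 0.111 and 0.288 in the exon 4 rescue, 0.353, 0.330 and 0.287 in the exon 6 KO, and 0.0303, 0.0966 and 0.0494 in the exon 6 rescue. The replicates did not overlap, although the technical replicate of the exon 6 KO (0.287) was just below exon 4 rescue replicate 2 (0.288). The KO mean (0.424 ± 0.124) was 3.37 times the rescue mean (0.126 ± 0.113, SD, n = 4 each), and the log2 change was 0.57 (SE 0.12). The adjusted p of 0.0575 lay just past the threshold, and in the fit blocked on replicate number it was 0.0390.

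Some rescue values were no higher than those of genes that fibroblasts are not known to use. In exon 4 rescue replicate 2, *Ube2t* (0.0852), *Fancd2* (0.0899) and *Fancb* (0.0846) lay below the mean olfactory receptor level of that library (0.103), and so did *Ube2t* (0.0220) and *Fancd2* (0.0416) in the second exon 6 rescue library (0.0453) and *Fanci* (0.00988) in exon 4 rescue replicate 1 (0.0305). These 6 values enter the rescue means and so the ratios given above, among them the highest, that of *Fanci*. When the mean olfactory receptor level was subtracted from each library, 5 of the 10 genes were called, *Brip1* being added (adjusted p = 0.0190), beside 1.85% of all genes upwards. Without exon 4 rescue replicate 2 and the second library of the exon 6 rescue, 4 were called, with *Brip1* (adjusted p = 0.0237) in and *Ube2t* (adjusted p = 0.0692) out, beside 1.46% of all genes upwards. Both settings were chosen after seeing the data. The sign of all 10 changes was the same when the RPKM were taken as deposited or were quantile normalised. After quantile normalisation 4 of the 10 genes were called in limma, beside 297 of 16769 genes upwards. *Brip1* (adjusted p = 0.0101) was then in and *Ube2t* (adjusted p = 0.0542) out. As deposited, however, the median of all genes moved to 0.64, and that of the 10 genes was 0.91, with *Fancc* at 0.33.

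**Figure D2:**
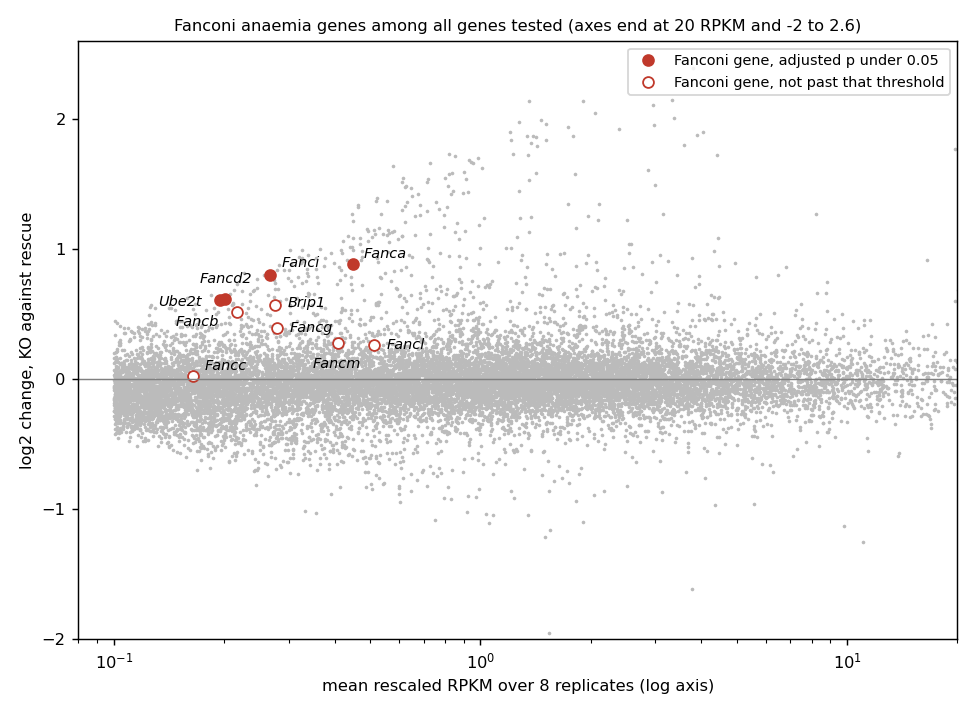
Log2 change of KO against rescue over both clones (vertical axis) against the mean rescaled RPKM over the 8 replicates (horizontal log axis), with each tested gene as a grey dot and the Fanconi anaemia genes in red. The list lies at the low end of expression, and its 4 called genes (filled) stand at 0.61 to 0.89; 371 of the 16866 genes fall outside the axes.

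The clones were also compared alone. In the exon 6 clone (2 KO against 2 rescue replicates), 0 of the 10 genes passed the adjusted threshold in limma, which 1.24% of 15301 genes passed upwards and 0.0654% downwards, and the lowest adjusted p was 0.0611 for *Fanci*. At an unadjusted p under 0.05, 7 of the 10 were higher and 0 lower, against 7.31% and 4.52% of all genes tested. The log2 changes ran from 0.15 for *Fancc* to 0.96 for *Fanca*, with *Fanci* at 0.89, *Fancb* at 0.76 and *Fancd2* at 0.67. With the technical replicates entered as separate libraries, which overstates the number of independent cultures, 4 of the 10 passed, beside 1.73% of all genes upwards.

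In the exon 4 clone (2 against 2), 0 of 18751 genes passed the adjusted threshold upwards and 0 downwards, while 2.27% were higher and 1.82% lower at an unadjusted p under 0.05. Of the Fanconi anaemia genes, 9 had a positive log2 change, from 0.11 for *Fancm* to 0.82 for *Fanca*, and *Fancc* was at -0.10. *Fanca*, *Fanci* and *Ube2t* had an unadjusted p under 0.05 (0.00908, 0.0217 and 0.0311), and the adjusted p of the 10 genes ran from 0.826 to 0.988. With the replicate block, 0 of the 10 were called in either clone, beside 0.928% of genes upwards and 0.0654% downwards in the exon 6 clone and 0.00533% downwards in the exon 4 clone.

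The ratio of KO to rescue means was greater in the exon 6 clone for *Ube2t* (12.3 against 5.54), *Fancd2* (9.80 against 4.95), *Fanci* (9.49 against 6.71), *Brip1* (6.41 against 2.59) and *Fancb* (5.59 against 2.52). It was also greater there for *Fancm* (2.24 against 1.12), *Fancc* (1.71 against 0.789) and *Fancl* (1.405 against 1.31), and smaller for *Fanca* (4.18 against 5.0) and *Fancg* (1.91 against 2.55). On the fitted scale, the order was the opposite for *Ube2t*, with a log2 change of 0.55 in the exon 6 clone against 0.66 in the exon 4 clone, and for *Fanca*, with 0.96 against 0.82. The ratio of *Ube2t* in the exon 6 clone rests on a rescue mean of 0.0215 RPKM. An interaction term of genotype with clone asked whether these changes differed, and it passed the adjusted threshold in 0 of 16866 genes in limma, with 2.57% of genes more positive in the exon 6 clone and 1.49% more negative at an unadjusted p under 0.05. All 10 genes had an adjusted p of 0.997 for it. *Fancb* came nearest, with a change 0.49 greater in the exon 6 clone (SE 0.21, unadjusted p = 0.0477). With 2 replicates a group the intervals are wide, so a difference between the clones of the size seen for *Fancb* is neither shown nor bounded closely. The rescue cells of the clones did not differ past the threshold in any of the 10 genes (adjusted p 0.295 to 0.965, log2 difference of exon 6 from exon 4 between -0.41 for *Fancm* and 0.19 for *Fanca*), while 1.62% of all genes were higher and 1.53% lower in the exon 6 rescue. At an unadjusted p under 0.05 these were 0 of the 10 genes, 9.23% of all genes higher and 12.5% lower.

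**Figure D3:**
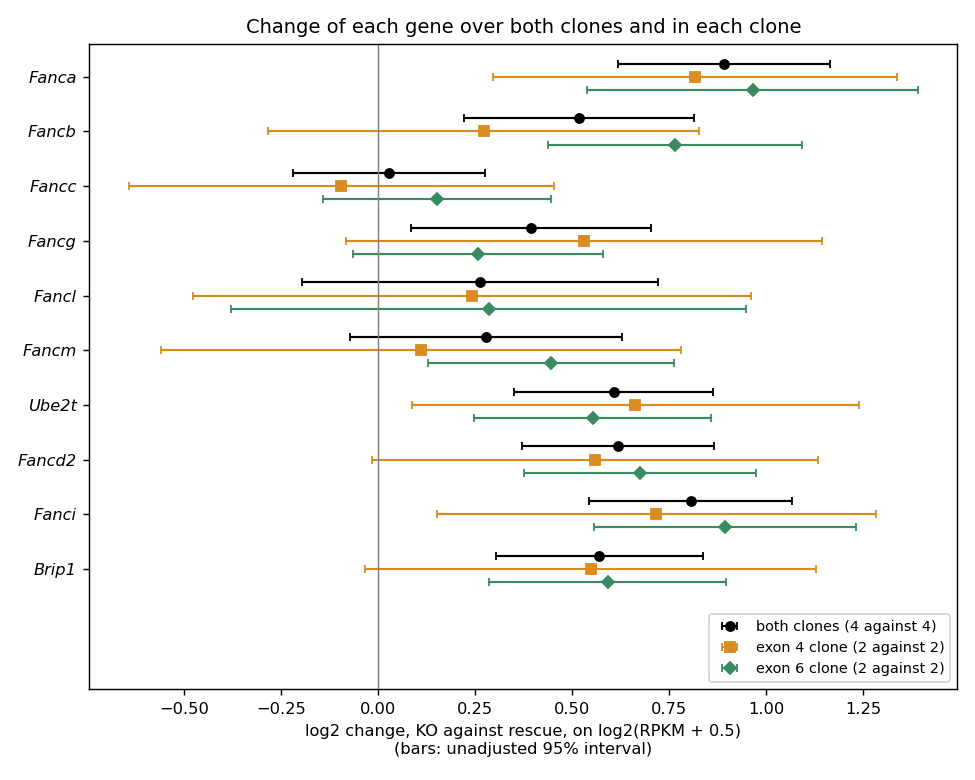
Log2 change of KO against rescue, on the scale log2(RPKM + 0.5), for each gene over both clones (black, 4 against 4 replicates) and in the exon 4 (orange) and exon 6 clone (green, 2 against 2 each), with unadjusted 95% intervals as bars. The estimates of the clones lie on the same side of 0 for all genes but *Fancc*, and their intervals overlap in every gene.

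Of 35 further genes that work in or beside the pathway, 32 were expressed enough to be tested (*Poln*, *Atrip* and *Rmi2* were not). Over both clones, 5 of the 32 rose and 0 fell, beside 1.61% and 0.083% of all genes tested. The median log2 change of the 32 was 0.06 with 19 of 32 above 0, beside 0.54 and 10 of 10 for the Fanconi anaemia genes. Both lists were chosen with earlier results of these data known, and the difference between them was not tested. It depends on which genes each list holds: the core complex genes *Fance* (-0.28) and *Fancf* (0.26), neither of them called, stand among the 32. In 8 of the 35, every KO replicate was above every rescue replicate, beside 3.11% of all genes tested. The 5 genes that rose serve recombination, the resolution of joined DNA and the checkpoint at stalled forks.

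Among the recombination genes 2 of 7 rose. *Brca1*, a scaffold and ubiquitin ligase of homologous recombination that binds BRIP1, increased from 0.157 ± 0.0569 RPKM in the rescue to 0.961 ± 0.162 in the KO (SD, n = 4 each), a log2 change of 1.15 (SE 0.11, adjusted p = 0.000951). Its partner *Bard1* went from 0.109 ± 0.0635 to 0.568 ± 0.210 (log2 change 0.80, SE 0.14, adjusted p = 0.0235). The call of *Bard1* was lost without any of the 4 exon 6 replicates (adjusted p up to 0.133) and without exon 4 KO replicate 1 (0.0538). The ubiquitin ligase gene *Rfwd3* had a log2 change of 0.52 and missed the threshold (adjusted p = 0.0707).

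Of the 7 nuclease genes only *Eme1*, the partner of the endonuclease MUS81, rose, from 0.117 ± 0.0347 to 0.869 ± 0.207 RPKM (log2 change 1.14, SE 0.13, adjusted p = 0.00238). Of the 4 tested genes of the sensor kinase and of fork partners, 2 rose. The helicase *Blm* went from 0.153 ± 0.103 to 0.799 ± 0.239 (log2 change 0.99, SE 0.12, adjusted p = 0.00295), and *Topbp1*, an activator of the ATR kinase, from 0.519 ± 0.107 to 1.23 ± 0.112 (log2 change 0.77, SE 0.11, adjusted p = 0.00675; SD, n = 4 each).

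In the other 4 roles 0 genes passed in limma. This held for the 7 further core complex genes and partners, of which *Cenpx*, a subunit that binds FANCM with CENPS, was expressed most (1.42 RPKM over all replicates, log2 change -0.24, SE 0.14, adjusted p = 0.705). The log2 changes of these 7 genes ran from -0.28 (*Fance*) to 0.48 (*Cenps*, SE 0.17, limma adjusted p = 0.401). For the pair that removes ubiquitin from FANCD2, *Wdr48*, the activator of USP1, had 2.92 RPKM and a change of -0.06 (SE 0.083, adjusted p = 0.891), and *Usp1* a change of -0.03. Translesion synthesis was represented by 3 tested genes, among them *Rev1*, a polymerase and scaffold, with 1.17 RPKM and a change of -0.00 (SE 0.20, adjusted p = 0.998). *Aldh2*, which clears aldehydes that crosslink DNA, had 3.81 RPKM and a change of 0.12 (SE 0.12, adjusted p = 0.825). Over the whole list of 32, 10 genes were higher and only *Rev3l* (-0.32) was lower at an unadjusted p under 0.05, beside 5.06% and 3.72% of all genes. The signs of *Cenpx* (0.52), *Wdr48* (0.80) and *Rev1* (0.79) turned positive when the RPKM were taken as deposited, where the median of all genes was 0.64.

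**Figure D4:**
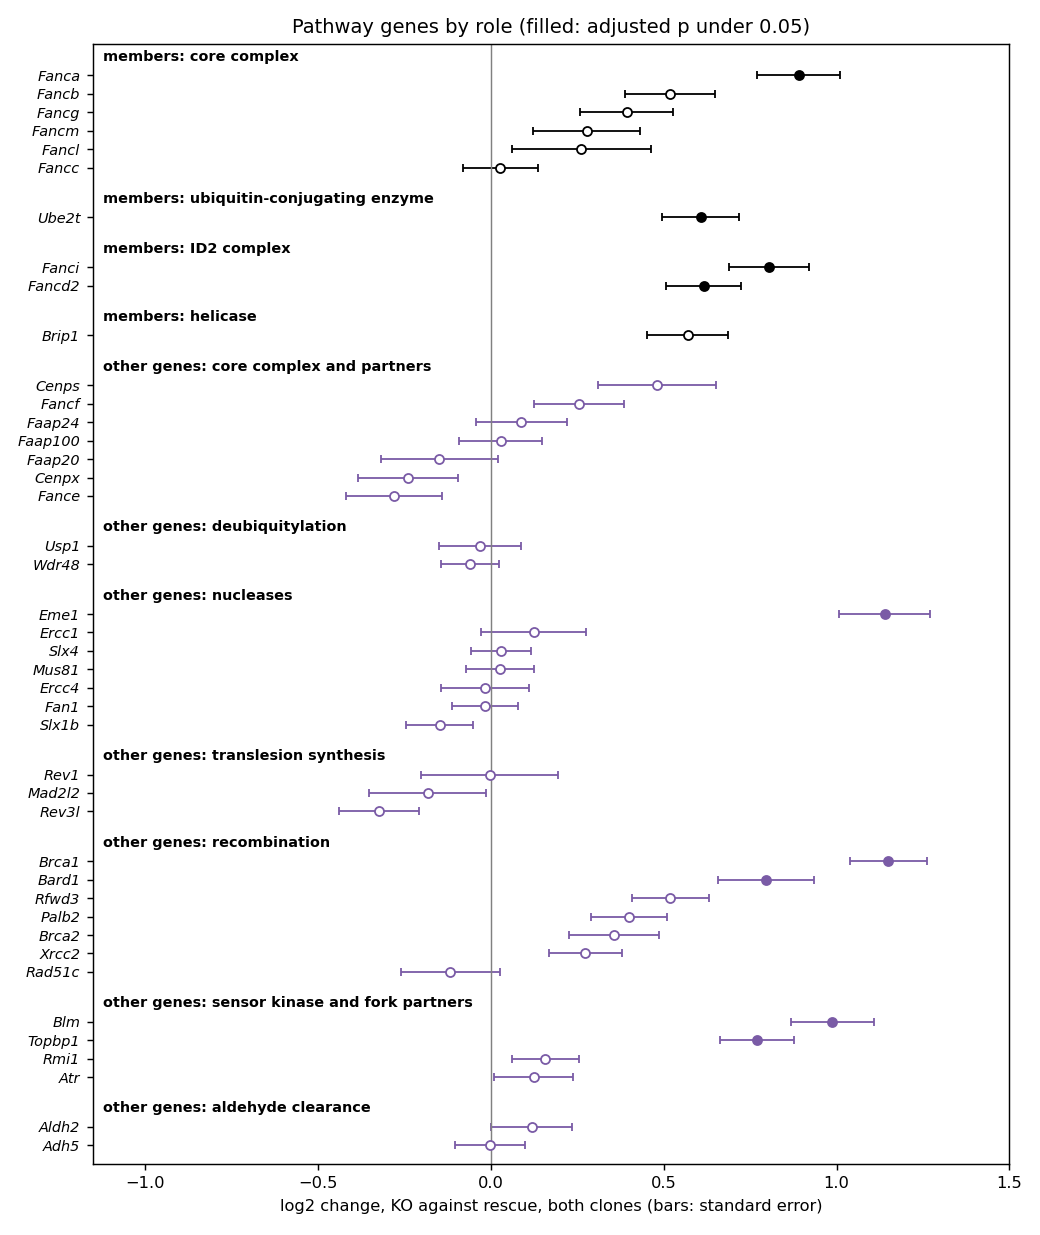
Log2 change of KO against rescue over both clones for the 10 Fanconi anaemia genes (black) and the 32 tested further genes of the pathway (purple), sorted by role, with standard errors as bars and filled points for an adjusted p under 0.05. Filled points occur in the core complex, *Ube2t*, ID2, nuclease, recombination and fork groups, and the points of deubiquitylation and aldehyde clearance lie near 0.

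Across the 8 replicates the called genes moved with the list as a whole. Pearson's r of a gene's log2 values with the mean of the other 9 was 0.96 for *Fanci*, 0.92 for *Fancd2*, 0.89 for *Brip1*, 0.88 for *Ube2t* and 0.85 for *Fanca*, between 0.63 and 0.72 for *Fancb*, *Fancm*, *Fancg* and *Fancl*, and 0.34 for *Fancc*. These values describe replicates that fall into KO and rescue, so the difference between these groups is part of every r. Among 8338 other protein-coding genes with at least 0.5 RPKM, the pattern most like the mean of the list over the 8 replicates was that of *Mis12* (r = 0.990), *Ndc80* (0.978), *Haus6* (0.977), *Atad2* (0.975) and *Mad1l1* (0.975). Their log2 changes of KO against rescue were 0.49, 1.74, 1.09, 1.61 and 0.59, and they were chosen by this likeness.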

How the data were processed

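RNA was sequenced from 10 libraries of *Lin37* KO and rescue NIH3T3 cells. The authors clipped adapters with cutadapt, mapped paired reads to mm10 with segemehl allowing split reads, counted them per gene with rnacounter against GENCODE vM5 and deposited RPKM values; which reads form the library total behind the RPKM is not given in the sources used here. Their own edgeR test removed satellite repeat entries and needs counts, so it was not repeated. Steps between low values gave whole reads for only 28.5% to 36.0% of them (2% tolerance), so the depth of a library is an estimate (21900000 to 91100000 reads if the commonest step is a single read) and no counting error is given.

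Symbols and positions came from GENCODE M21 (GRCm38), which held 44585 of the 45232 identifiers. Libraries were rescaled by median of ratios, using 8523 genes that averaged 1 RPKM or more and were above 0 everywhere, and technical replicates were averaged. Genes averaging 0.1 RPKM or more were tested on log2(RPKM + 0.5) with limma 3.58.1 (lmFit, eBayes with a trend; R 4.3.3), with a clone term where both clones entered, and p-values were adjusted by Benjamini-Hochberg over all genes tested. The script was tested on simulated data. Descriptions and plots used Python 3.11.15, pandas 2.3.3, numpy 2.4.6 and matplotlib 3.10.9.

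The pairing rests on replicate numbers that KO and rescue have in common in the labels, and same-numbered deviations from the group means correlated over 7550 genes (r = 0.477 in the exon 4 and 0.360 in the exon 6 clone). Nothing says that biological replicates were separate thaws or days, so p-values measure the spread between these cultures. Alternatives were pseudocounts of 0.1 and 1, no minimum and a minimum of 1 RPKM, deposited and quantile normalised values, separate technical replicates, no trend, no clone term, the replicate block and each replicate left out.

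Named with values were all 10 genes and *Lin37*, every further pathway gene called over both clones, the most expressed gene of each role with none called, and the 5 genes of most similar pattern; genes named beyond this rule were chosen after their values were seen. A further pathway gene of the list is not reported here. The genes and lists were chosen with earlier results of these data known.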

Additional observations from a re-analysis of the deposited data

Results flagged for a closer look

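*Fancc* moved in opposite directions in the clones. In both exon 4 pairs the KO replicate was lower than the rescue replicate of the same number (log2 differences -0.02 and -0.17), and in both exon 6 pairs it was higher (0.19 and 0.11). The change in the exon 6 clone minus that in the exon 4 clone was 0.25 (SE 0.21, 95% interval -0.24 to 0.74), and the interaction test did not pass (limma, unadjusted p = 0.274, adjusted p = 0.997). None of the 20 sets of 4 replicates examined, KO and rescue of each of the 10 genes, held a replicate set apart from the others by Dixon's criterion (0.829 for 4 values), which chance alone passes in about 1 set of 20.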

How the results depend on the processing

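The changes of the 10 genes kept their direction and their side of the threshold in 152 of 190 combinations of gene and alternative. *Fancc* alone turned, to -0.00238 without exon 6 KO replicate 1 and to -0.00625 without exon 6 rescue replicate 1, and ran up to 0.0902 with other replicates left out. *Rev1*, at -0.00, turned to 0.00450 with a pseudocount of 0.1, to 0.103 without exon 4 KO replicate 1, 0.184 without exon 4 rescue replicate 2, 0.0628 without exon 6 rescue replicate 2 (lowest -0.164, without exon 6 rescue replicate 1), 0.277 without both libraries of the lowest factor and 0.788 as deposited, where *Cenpx* was at 0.517 and *Wdr48* at 0.797. *Fanca* was called under 18 of 19 alternatives, *Fanci* under 16, *Fancd2* under 12, *Brip1* under 8 and *Ube2t* under 7. The log2 change depended on the pseudocount, at 1.92 (*Fanci*), 1.70 (*Fanca*), 1.56 (*Ube2t*) and 1.56 (*Fancd2*) with 0.1 and 0.48, 0.57, 0.35 and 0.36 with 1.

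Over both clones, 285 genes were called. With no minimum level, 45232 entries were tested and 167 called, 0 of the 10 genes among them (adjusted p 0.0578 for *Fanca*) and 3 of the further pathway genes in place of 5; the exon 6 clone had 0 calls in place of 199, the interaction 60 in place of 0 and the rescue clones 277 in place of 531. With a minimum of 1 RPKM, none of the 10 genes could be tested, 0 of the 9 further pathway genes left were called, and the calls were 103 over both clones, 75 for exon 6 alone and 1 for exon 4 alone in place of 0. On RPKM as deposited, 888 of 16349 genes tested were called over both clones, 875 of them higher, against 271 of 285 after rescaling. These calls held 9 of the 10 genes in place of 4, and 10 further pathway genes. In the exon 6 clone, 10087 genes were called, with 9 of the 10 genes in place of 0. After rescaling, 15301 genes were tested in that clone, so the 10087 calls took in a large part of all genes. The 9 of 10 in that clone is therefore not particular to the list. The interaction had 7 calls and the comparison of the rescue clones 63. With technical replicates as separate libraries, 4 of the 10 genes and 1.73% of all genes passed upwards in the exon 6 clone. With a replicate left out, the calls over both clones ran from 178 (without exon 6 KO replicate 2) to 280, those among the 10 genes from 1 to 4, and those of the exon 6 clone from 0 to 72; the lone replicate left was assumed to vary like the other groups. Fewer replicates also mean fewer residual degrees of freedom.

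With the replicate block, 276 genes were higher and 27 lower over both clones, 4 of the 10 genes and 5 further pathway genes were called, and the exon 4 clone had 1 call in place of 0; *Ube2t* (adjusted p = 0.0502) left the calls and *Brip1* (0.0390) entered them, and no other call among the 10 genes changed. The levels behind the rescue values are low: the estimated reads per gene and library were 2.09 to 237 in the rescue (median 22.1) and 22.7 to 649 in the KO (median 131).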

Other observations

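The technical replicates of the exon 6 clone give the spread within a single culture. On the scale log2(RPKM + 0.5), the second KO library and its technical replicate differed by a median of 0.196 over the 10 genes, with *Fancg* farthest apart (0.383), and the corresponding rescue libraries by a median of 0.0861, with *Fanca* farthest apart (0.374). These differences hold no spread between separate cultures.

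The further pathway genes were also compared in each clone alone. In the exon 6 clone, 4 of the 32 tested rose and 0 fell, beside 1.24% and 0.0654% of all genes tested. With the replicate block 3 rose, beside 0.928%. In the exon 4 clone 0 of 34 were called in limma, as were 0 of all 18751 genes. At an unadjusted p under 0.05, 5 of the 34 were higher and 0 lower, beside 2.27% and 1.82% of all genes. The difference between the clones was called in 0 of the 32, with 0 at an unadjusted p under 0.05 in either direction.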
